A study of Mus musculus with 14 samples.

Results

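The genes described here are 6 genes of histamine synthesis and of mast cells: Hdc, Cpa3, Cma1, Mcpt4, Kit and Tpsb2. They were taken by symbol from the annotation of the probes in the authors' processed table, which named 10544 genes. Of the 6, 5 had a named probe and all 5 passed the filter on dim probes, among 10478 genes tested. Tpsb2, a mast cell tryptase gene, was not analysed here. The genes were chosen by their levels on these same arrays, the spread of Hdc among non-pregnant arrays included, so their levels and differences are given as a description with no test. Tests are given only for 18 measured genes of 47 other mast cell and histamine genes, listed by function and not by how they moved, though earlier results of these data were known when the lists were written.

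Uterine RNA of C57BL/6 mice, 8 weeks old, was measured on 14 Illumina BeadChip arrays. There were 5 arrays of non-pregnant uterus, 5 of pregnant uterus after PBS and 4 of pregnant uterus after PC61, an antibody against CD25, the interleukin-2 receptor alpha chain, given to remove regulatory T cells. Tissue of the pregnant groups was taken on day 12 after fertilization. The labels give no antibody dose or schedule, do not say whether conceptuses were left in the tissue, and do not say that arrays came from separate mice, so the p-values speak only of the variation among these arrays, part of which may be technical.

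Mast cells are tissue-resident cells whose granules store histamine, heparin and proteases. They depend on the receptor Kit and its ligand, stem cell factor, and release their granules when antigen crosslinks IgE on the high-affinity IgE receptor. Histidine decarboxylase, the product of Hdc, is the enzyme that makes histamine, and it is not restricted to mast cells: in the mouse uterus the epithelium also expresses it. Kit is likewise expressed by other cells, among them blood progenitors, melanocytes and germ cells. Cpa3 encodes the mast cell carboxypeptidase, while Cma1 and Mcpt4 encode chymases, chymotrypsin-like proteases of connective tissue mast cells.

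The promoter sequences of the 3 granule protease genes and of Hdc are shown because the proteases were lower together in the PBS-treated pregnant uterus and Hdc, which was lower on average too, varied most. They are the RefSeq windows of build GRCm38.p6, from 250 bases before to 50 bases after the annotated start, printed along the gene's strand. Capitals mark each match to GATAA on either strand. GATAA is 1 form of the sequence that GATA factors such as GATA2, a regulator of mast cell genes, bind.
Hdc (chr2:126618629-126618928, minus strand): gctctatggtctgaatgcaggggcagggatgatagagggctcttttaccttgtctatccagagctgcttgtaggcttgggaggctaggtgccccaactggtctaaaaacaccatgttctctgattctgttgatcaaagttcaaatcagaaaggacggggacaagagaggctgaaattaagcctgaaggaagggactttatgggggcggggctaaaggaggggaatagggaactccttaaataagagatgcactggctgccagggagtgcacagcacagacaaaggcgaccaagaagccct
Cpa3 (chr3:20242132-20242431, minus strand): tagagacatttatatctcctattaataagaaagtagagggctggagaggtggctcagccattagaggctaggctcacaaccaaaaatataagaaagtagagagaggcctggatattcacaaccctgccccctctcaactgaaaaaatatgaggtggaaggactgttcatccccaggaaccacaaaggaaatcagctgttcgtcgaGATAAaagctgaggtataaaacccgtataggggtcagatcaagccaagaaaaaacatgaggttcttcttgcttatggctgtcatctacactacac
Cma1 (chr14:55944626-55944925, minus strand): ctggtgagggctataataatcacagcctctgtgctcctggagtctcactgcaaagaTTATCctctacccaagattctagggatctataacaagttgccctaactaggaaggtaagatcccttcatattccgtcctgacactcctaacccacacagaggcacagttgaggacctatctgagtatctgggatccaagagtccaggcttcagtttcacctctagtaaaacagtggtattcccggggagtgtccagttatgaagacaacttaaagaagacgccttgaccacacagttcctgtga
Mcpt4 (chr14:56062261-56062560, minus strand): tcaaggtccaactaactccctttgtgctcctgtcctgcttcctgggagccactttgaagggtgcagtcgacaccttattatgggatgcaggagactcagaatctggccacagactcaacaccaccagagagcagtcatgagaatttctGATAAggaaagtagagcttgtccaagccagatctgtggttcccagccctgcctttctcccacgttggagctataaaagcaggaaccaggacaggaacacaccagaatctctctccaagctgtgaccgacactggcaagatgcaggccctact

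Promoter windows were found for 5 of the 6 genes. GATAA was searched on both strands and was present in 25.4% of all 32851 windows of this length. It matched 1 time in each protease window, starting at base -45 in Cpa3 and at base -102 in Mcpt4 on the gene's strand, and at base -194 in Cma1 on the opposite strand. The windows of Hdc and of Kit held no match to GATAA. Other forms of the GATA sequence were not searched, so a window without GATAA may still hold 1 of them. The letters TATAA, searched the same way and present in 24.9% of all windows, started at base -31 in Cpa3 and at base -32 in Mcpt4, and also at bases -241, on the opposite strand, and -164 in Cpa3. In Cma1 they started at bases -239 and -166, and the windows of Hdc and Kit held none. CANNTG, a palindromic pattern bound by helix-loop-helix factors such as MITF, was in 72.3% of all windows and in those of Hdc, Cpa3, Cma1 and Kit but not of Mcpt4. No match to one pattern overlapped a match to another.

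Arrays of the PC61 group differed from each other. Over all genes, correlations within the group ran from 0.861 to 0.980, against 0.939 to 0.989 among non-pregnant and 0.971 to 0.987 among PBS arrays. Trophoblast marker genes (5 of 9 measured) stood, in mean log2 level, 6.14, 5.52 and 3.08 below the PBS mean on PC61 arrays 1 to 3 and 0.32 above it on array 4, while the 5 PBS arrays lay between -0.14 and 0.14. Uterine NK cell genes (6 of 8 measured) stood 4.21 below the PBS mean on PC61 array 1 alone, with 1 of 6 above background there. Levels below are normalized log2 intensities, and a probe was called above background on an array at a detection p under 0.01. In bulk tissue, fewer cells of a type and less RNA per cell cannot be told apart.

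Hdc differed widely among the non-pregnant arrays. Its log2 levels on non-pregnant arrays 1 to 5 were 11.71, 13.89, 10.23, 11.09 and 13.25, a 12.6-fold range. Arrays 2 and 5 were high, array 3 was low, and the group SD of 1.52 (n = 5) ranked 67th of 10478 genes, against a median SD of 0.25. The other Hdc probe kept the order of the arrays, with 9.72, 12.03, 7.68, 8.89 and 11.08. With array 2, 3 or any other left out in turn, the SD lay between 1.28 and 1.74.

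On the PBS arrays Hdc was lower on average and closer together, at 9.64, 9.95, 10.56, 11.09 and 10.49. The PBS mean was 10.35 ± 0.56 (SD, n = 5) and the non-pregnant mean 12.03 ± 1.52 (SD, n = 5), a log2 difference of -1.69 (SE 0.76), or 3.22-fold. The groups overlapped, since non-pregnant array 3 lay below 3 PBS arrays and array 4 just below PBS array 4. The other Hdc probe gave -2.54 (SE 0.81). On PC61 arrays 1 to 4 the levels were 11.68, 11.99, 12.26 and 8.39. Arrays 1, 2 and 3 stood above every PBS array and array 4 below every array of the study. The PC61 mean was 11.08 ± 1.81 (SD, n = 4), which differed from PBS by 0.74 (SE 0.80), and by 1.63 without PC61 array 4. Leaving out array 1, 2 or 3 instead gave 0.54, 0.43 or 0.34. For PC61 against PBS the other Hdc probe gave 0.68 (SE 0.86). On that probe PC61 array 1, at 7.95, lay just above the highest PBS array, at 7.91.

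**Figure D1:**
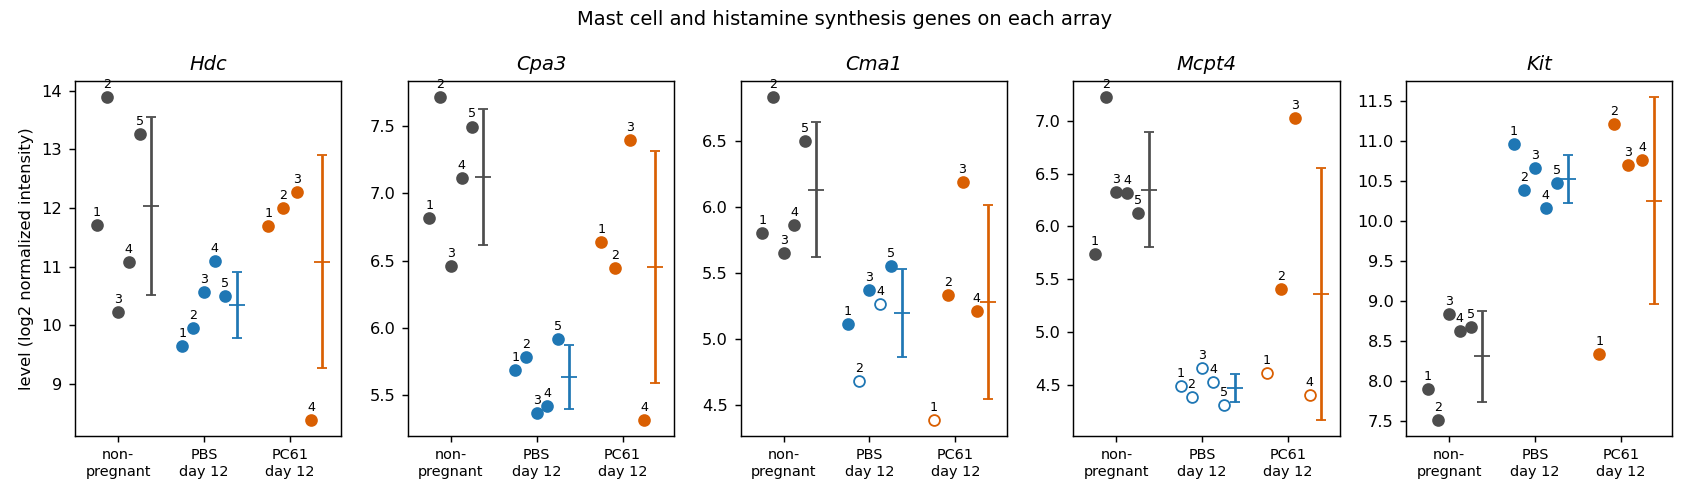
Normalized log2 intensity (vertical axis, its own range in each panel) of Hdc, Cpa3, Cma1, Mcpt4 and Kit on each array, numbered by replicate, for 5 non-pregnant, 5 PBS and 4 PC61 arrays. Filled points were above background, open points were not, and the bar beside each group is the mean ± SD. Hdc spreads from 10.23 to 13.89 on non-pregnant arrays, and Mcpt4 is open on all 5 PBS arrays.

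Cpa3, the mast cell carboxypeptidase, was lower in the PBS-treated pregnant uterus than in the non-pregnant uterus. Its levels on non-pregnant arrays 1 to 5 were 6.82, 7.71, 6.46, 7.11 and 7.50, and on PBS arrays 1 to 5 they were 5.69, 5.79, 5.37, 5.42 and 5.92. The groups did not overlap, and Cpa3 was above background on every array of both. The means were 7.12 ± 0.51 (SD, n = 5) and 5.64 ± 0.24 (SD, n = 5), a log2 difference of -1.48 (SE 0.33), or 2.80-fold. The other Cpa3 probe gave -1.43 (SE 0.31).

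On PC61 arrays 1 to 4 Cpa3 stood at 6.64, 6.45, 7.40 and 5.32. As for Hdc, arrays 1, 2 and 3 lay above every PBS array and array 4 below. The PC61 mean of 6.45 ± 0.86 (SD, n = 4) differed from PBS by 0.81 (SE 0.35), by 0.50 without array 3 and by 1.19 without array 4. The other probe gave 0.85 (SE 0.33), and there array 4, at 5.48, lay within the PBS range.

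Mcpt4, the chymase of connective tissue mast cells, had levels of 5.74, 7.22, 6.33, 6.31 and 6.13 on the non-pregnant arrays, all above background. On the PBS arrays it lay at 4.49, 4.39, 4.66, 4.53 and 4.31 and was not above background on any of them. On the background-corrected scale it was at least 2.35-fold lower in the PBS group, taking each PBS array at its lowest signal called above background, or at the probe's own where that was higher. Measured means were 6.35 ± 0.55 (SD, n = 5) and 4.47 ± 0.13 (SD, n = 5). On PC61 arrays 1 to 4 it stood at 4.62, 5.41, 7.03 and 4.41, and only arrays 2 and 3 were above background. The level on PC61 array 3 lay within the non-pregnant range. The measured difference from PBS was 0.89 (SE 0.43), and 0.33 without PC61 array 3.

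Cma1, the other chymase gene, was dim, with levels of 5.80, 6.83, 5.65, 5.87 and 6.50 on the non-pregnant arrays and 5.11, 4.68, 5.38, 5.27 and 5.55 on the PBS arrays. The groups did not overlap, although PBS arrays 2 and 4 were not above background. The means were 6.13 ± 0.51 (SD, n = 5) and 5.20 ± 0.33 (SD, n = 5), a log2 difference of -0.93 (SE 0.31). Its other probe gave -0.78 (SE 0.26), and there the groups overlapped, with 5.10 on non-pregnant array 1 and 5.30 on PBS array 3. PC61 arrays 1 to 4 stood at 4.39, 5.33, 6.19 and 5.21, of which array 3 lay above every PBS array and array 1 was not above background. The PC61 and PBS means differed by 0.08 (SE 0.33), by -0.22 without PC61 array 3 and by 0.38 without PC61 array 1, and the other probe gave -0.08 (SE 0.27).

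The size of the protease differences between PBS and non-pregnant arrays depended on the background step. With quantile normalization and no background correction they were -0.69 for Cpa3, -0.65 for Mcpt4 and -0.33 for Cma1, in place of -1.48, -1.87 and -0.93. In the authors' values they were -0.68, -0.62 and -0.32. The direction was the same in each, and every fold given as "at least" holds on the background-corrected scale alone.

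Kit ran the other way. The receptor for stem cell factor had levels of 7.90, 7.52, 8.83, 8.63 and 8.68 on the non-pregnant arrays and 10.96, 10.39, 10.66, 10.16 and 10.47 on the PBS arrays. The groups were fully apart, with means of 8.31 ± 0.57 (SD, n = 5) and 10.53 ± 0.30 (SD, n = 5), a log2 difference of 2.21 (SE 0.44), or 4.64-fold. On PC61 arrays 1 to 4 Kit stood at 8.35, 11.21, 10.69 and 10.75. Array 1 lay among the non-pregnant values and the other 3 among or above the PBS values. The PC61 mean was 10.25 ± 1.29 (SD, n = 4), which differed from PBS by -0.28 (SE 0.47), and by 0.36 without PC61 array 1.

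Between PBS and non-pregnant arrays, 4 of the 5 measured genes had groups that did not overlap, Cpa3, Cma1 and Mcpt4 lower and Kit higher, where 41.2% of all genes did, 21.1% higher and 20.1% lower. For PC61 against PBS 0 of the 5 did, where 1.81% of all genes did, 1.01% higher and 0.802% lower. For PC61 against non-pregnant arrays it was also 0 of 5, where 21.5% of all genes did, 9.78% higher and 11.7% lower. In that last comparison the log2 differences were -0.95 (SE 0.80) for Hdc, -0.67 (SE 0.35) for Cpa3, -0.98 (SE 0.43) for Mcpt4, -0.85 (SE 0.33) for Cma1 and 1.94 (SE 0.47) for Kit. Without PC61 array 4 the difference was -0.05 for Hdc, -0.29 for Cpa3 and -0.66 for Mcpt4, without array 3 it was -1.54 for Mcpt4, and without array 1 it was -0.55 for Cma1. For PC61 against non-pregnant arrays the other Hdc probe gave -1.85 (SE 0.86). PC61 and PBS were both set against the same non-pregnant arrays, so these differences are not independent of those above.

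Within the non-pregnant group the mast cell genes and Hdc differed from array to array in related ways. Array 2 was the highest for Hdc, Cpa3, Cma1 and Mcpt4 and the lowest for Kit, and array 3 was the lowest for Hdc, Cpa3 and Cma1 and the highest for Kit. Array 5 was the next highest for Hdc, Cpa3 and Cma1. The other probes kept array 2 highest for Cpa3 and Cma1, but array 1 was lowest for both there, and array 3 was the next highest for Cma1 at 6.25. Mcpt4 differed in order, with array 5 at 6.13 below arrays 3 and 4. The ranges differed as well, at 3.66 on the log2 scale for Hdc against 1.25 for Cpa3, 1.18 for Cma1, 1.48 for Mcpt4 and 1.31 for Kit.

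Aoc1, which encodes diamine oxidase, an enzyme that breaks down histamine outside cells, was low where Hdc was high. Its levels on non-pregnant arrays 1 to 5 were 8.91, 6.46, 10.78, 9.92 and 6.14, so that arrays 2 and 5 were lowest and array 3 highest. Gata2, the transcription factor, was high on arrays 2 and 5, with levels of 12.08, 12.999, 11.71, 11.72 and 12.94. These relations rest on 5 arrays and are a description.

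Several marker lists differed among the same arrays. The 5 measured of 6 oestrogen-responsive epithelial genes stood, in mean log2 level, 0.32, -1.10, 0.93, 0.57 and -0.73 from the non-pregnant mean on arrays 1 to 5, lowest on the arrays where Hdc was highest. Lcn2, lipocalin-2, was at 13.77, 9.86, 14.31, 13.83 and 8.99, and Sprr2f, an oestrogen-induced epithelial gene, at 12.24, 10.71, 12.98, 12.79 and 12.06. Ltf, lactoferrin, had another order, at 11.74, 13.24, 13.28, 12.59 and 12.56, so that on array 5 only Lcn2 of these 3 was far below the other arrays but array 2. Adipocyte genes (3 of 7 measured) stood at -1.20, 1.70, -0.87, 0.73 and -0.36, highest on array 2 but below the mean on array 5. Macrophage genes (5 of 7 measured) stood at -0.14, 0.29, -0.26, -0.16 and 0.28, in the order of Hdc over a smaller range. Smooth muscle genes (8 of 8 measured) stood at -0.04, -0.17, 0.45, 0.10 and -0.34 and decidual genes (4 of 6 measured) at 0.39, -0.51, 0.60, -0.03 and -0.45, both low on arrays 2 and 5 and highest on array 3. Mesothelial genes (3 of 5 measured) lay between -0.18 and 0.22, highest on array 5, and uterine epithelium genes (6 of 8 measured) between -0.24 and 0.24, highest on array 3. The part of cycle stage or tissue makeup in the spread of Hdc was not tested, and the labels give no cycle stage.

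**Figure D2:**
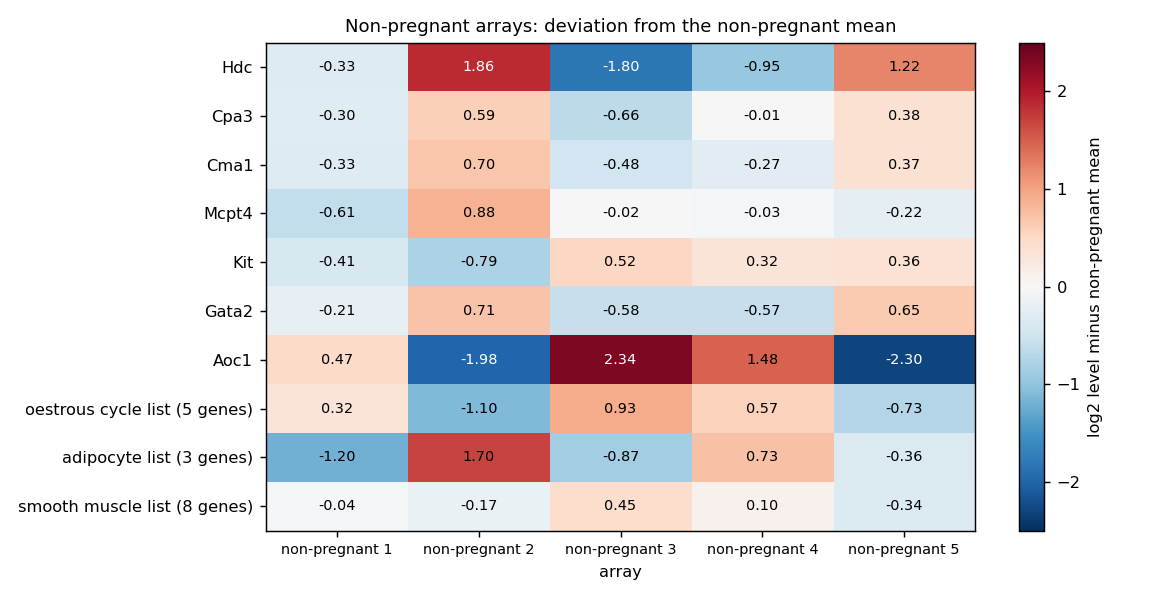
Log2 level minus the mean of the 5 non-pregnant arrays (colour and printed value) for 7 genes and 3 marker lists (rows) on non-pregnant arrays 1 to 5 (columns). Hdc is at 1.86 and 1.22 on arrays 2 and 5, where Aoc1 is at -1.98 and -2.30, and at -1.80 on array 3, where Aoc1 is at 2.34.

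Genes whose levels most resembled those of Hdc over the 14 arrays were Cldn34c1 (Pearson r = 0.935), Fitm2 (0.932), Sult1d1, a sulfotransferase (0.922), Ptger2, a prostaglandin E2 receptor (0.920), and Gprc5b (0.912). Sult1d1 had levels of 7.82, 10.70, 7.78, 7.34 and 10.76 on the non-pregnant arrays, with arrays 2 and 5 high as for Hdc. Ptger2 had 5.50, 6.79, 4.28, 5.03 and 6.35, in the same order as Hdc. Genes most like Cpa3 were Cavin2, a caveolar coat protein (0.968), Rbp7, a retinol-binding protein (0.961), Col4a5, a basement membrane collagen chain (0.961), Fxyd1 (0.959) and Kiz (0.943). Genes most like Kit were Gna13, a G protein subunit (0.969), Adssl1 (0.965), Ccdc68 (0.960), Gata3, a transcription factor of T and innate lymphoid cells (0.959), and Gzme, a granzyme of uterine NK cells (0.958). Gzme had levels of 4.31 to 4.90 on non-pregnant, 9.77 to 10.62 on PBS and 4.56, 11.27, 11.24 and 10.25 on PC61 arrays, so that both Kit and Gzme were low on PC61 array 1. Between members r was 0.834 for Hdc and Cpa3, 0.880 for Cpa3 and Mcpt4, and -0.556 for Hdc and Kit. The 14 points share 3 group levels, so these coefficients are descriptions over pooled groups.

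Among the measured mast cell markers, Hdc, Cpa3, Cma1 and Mcpt4 had lower means on PBS than on non-pregnant arrays and Kit a higher one. These genes were chosen by their levels on these arrays. Gata2 and Fcer1a also had lower means, and did not pass in the main fit. Of all genes, 5432 of 10478 had lower means. Of the 18 other mast cell and histamine genes, 9 had lower and 9 higher means, Ctsg, Tal1 and Srgn among the latter. Of 11 listed mast cell markers 7 had a named probe, and Fcer1a, the IgE-binding chain of the high-affinity receptor, was above background on 3 non-pregnant arrays, 0 PBS arrays and 1 PC61 array. Its levels were 4.38, 5.35, 5.26, 5.79 and 5.22 on the non-pregnant arrays, 4.50 to 4.82 on PBS arrays and 4.87, 4.96, 5.62 and 4.47 on PC61 arrays. Its measured log2 difference between PBS and non-pregnant arrays was -0.55 (SE 0.245), with overlapping groups, and did not pass limma's test (adjusted p = 0.0808). It did pass without non-pregnant array 1 (limma adjusted p = 0.0118, log2 difference -0.75) and with only the PBS and non-pregnant arrays fitted (0.047). Melanocyte genes, another source of Kit, had 1 of 5 members measured: Dct was at 4.36 to 4.62 on non-pregnant arrays and not above background there, at 5.85 to 6.59 on PBS arrays, and at 6.62, 4.42, 4.35 and 6.25 on PC61 arrays. Erythroid and yolk sac genes (6 of 7 measured) stood 7.17 to 7.62 lower on non-pregnant than on PBS arrays in mean log2 level. On PC61 arrays 1 to 4 they stood at -0.59, -2.62, -2.73 and -0.03 from the PBS mean, where Kit was at -2.18, 0.69, 0.17 and 0.23. The part of melanocytes or of erythroid and yolk sac cells in the level of Kit was not tested. Of the basophil markers only Il3ra was measured, and of 7 eosinophil markers 0.

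Among the other mast cell and histamine genes, limma called 8 of 18 between PBS and non-pregnant arrays, 3 higher and 5 lower, or 44.4% against 46.6% of all genes tested (22.9% higher and 23.7% lower). The median log2 difference of the 18 was 0.05 and that of all genes -0.03. A call is an adjusted p under 0.05 by the Benjamini-Hochberg method over 10478 genes.

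Of histamine transport and breakdown genes, Aoc1 was the 1 of 4 measured, and it rose. Its levels on PBS arrays were 12.58 to 12.95, against 6.14 to 10.78 on the non-pregnant arrays. The log2 difference was 4.32 (SE 0.76, limma adjusted p = 0.000385), or 20.0-fold, and the groups did not overlap. On PC61 arrays 1 to 4 it stood at 11.47, 13.75, 13.55 and 12.38. It also rose against the non-pregnant arrays, by 4.34 (SE 0.81, limma adjusted p = 0.00112). Slc18a2, Hnmt, Hrh1 and Hrh2, of histamine storage, breakdown and reception, were not analysed here, and neither were the other histamine receptors.

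Of the other granule proteases 1 of 9 was measured. Ctsg, cathepsin G, a protease of neutrophil and mast cell granules, was not above background on any non-pregnant array (4.30 to 4.51) and lay at 8.84 to 9.32 on the PBS arrays. It rose at least 15.9-fold on the background-corrected scale (limma adjusted p = 0.000309). Its measured log2 difference was 4.81, and 2.59 with no background correction (adjusted p = 0.00195). On PC61 arrays 1 to 4 it stood at 4.86, 11.03, 10.66 and 9.08, so that array 1 was not above background. Of the 5 measured neutrophil genes 4 rose and 1 fell alongside: S100a8, a calprotectin subunit, rose by 5.63 on the log2 scale (limma adjusted p = 1.09e-05), and Retnlg, a secreted myeloid protein above background on 0 of the PBS arrays, fell at least 58.5-fold (limma adjusted p = 6.15e-11).

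Of the IgE and surface receptors 5 of 12 were measured, of which 2 fell and 3 did not pass. Fcer2a, the low-affinity IgE receptor CD23, lay at 5.46 to 6.04 on non-pregnant arrays and 4.64 to 5.04 on PBS arrays, where it was not above background, and fell at least 1.55-fold (limma adjusted p = 0.0015). Its measured log2 difference was -0.91, against -0.26 in the authors' values, and with median scaling it did not pass (adjusted p = 0.0907). Milr1, an inhibitory receptor of mast cells, was not above background on the PBS arrays either and fell at least 1.16-fold (limma adjusted p = 0.0141). In the authors' values Milr1 did not pass (adjusted p = 0.11), nor did it with quantile normalization or median scaling and no background correction. Fcer1g, the signalling chain shared by Fc receptors, differed by -0.68 (SE 0.42), and Il3ra, the interleukin-3 receptor alpha chain, by 0.40 (SE 0.26). Neither passed in the main fit. For Fcer1g the groups did not overlap. It passed with only the PBS and non-pregnant arrays fitted (limma adjusted p = 0.000743) and with array weights (0.0281).

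Of the ligands that act on mast cells 2 of 6 were measured. Il33, a cytokine that activates mast cells, fell from 7.94 to 8.39 on the non-pregnant arrays to 5.50 to 5.84 on the PBS arrays, a log2 difference of -2.43 (SE 0.20, limma adjusted p = 4.01e-07), or -1.33 with no background correction. Kitl, which encodes stem cell factor, lay at 5.11, 5.52, 4.48, 4.94 and 5.72 on non-pregnant arrays and at 5.42 to 5.80 on PBS arrays. It did not pass (0.42, SE 0.23, limma adjusted p = 0.153), though with array weights it did (adjusted p = 0.0197).

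Of the transcription factors 3 of 4 were measured. Tal1, a factor of blood progenitors and mast cells, rose by 2.80 (SE 0.25, limma adjusted p = 8.3e-07), from 4.58 to 5.63 on non-pregnant arrays to 7.75 to 8.22 on PBS arrays, or by 1.38 with no background correction. Gata2 differed by -0.82 (SE 0.36, limma adjusted p = 0.0801) and Mitf, a factor needed for mast cell development, by 0.29 (SE 0.22). Gata2 passed with only the PBS and non-pregnant arrays fitted (limma adjusted p = 0.0209) and with array weights (0.0349). Mitf passed with array weights (0.0352).

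Of the genes of granule assembly and lipid mediators 6 of 8 were measured and 2 fell. Alox5ap, the 5-lipoxygenase activating protein of leukotriene synthesis, fell by 2.91 (SE 0.33, limma adjusted p = 9.37e-06), from 10.53 to 11.04 on non-pregnant arrays to 7.40 to 8.19 on PBS arrays. Hpgds, the haematopoietic prostaglandin D synthase, fell by 0.74 (SE 0.24, limma adjusted p = 0.0216). That call was lost without PBS array 3 (-0.68, adjusted p = 0.0514) and with median scaling and no background correction. The groups did not overlap for Srgn, the serglycin core protein of granules, but its difference of 1.31 (SE 0.82) did not pass. It did pass without PC61 array 1, which shares the estimate of spread (adjusted p = 0.00661), with only these 2 groups fitted (0.000984) and with array weights (0.0101). Ndst2, a heparin-modifying enzyme, Alox5, 5-lipoxygenase, and Ltc4s, leukotriene C4 synthase, had 0.11, 0.16 and -0.01. Macrophage genes, which share Alox5ap and Hpgds expression, moved alongside: of 5 measured, 4 fell and 1 rose, with C1qa, a complement chain, at -2.43.

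**Figure D3:**
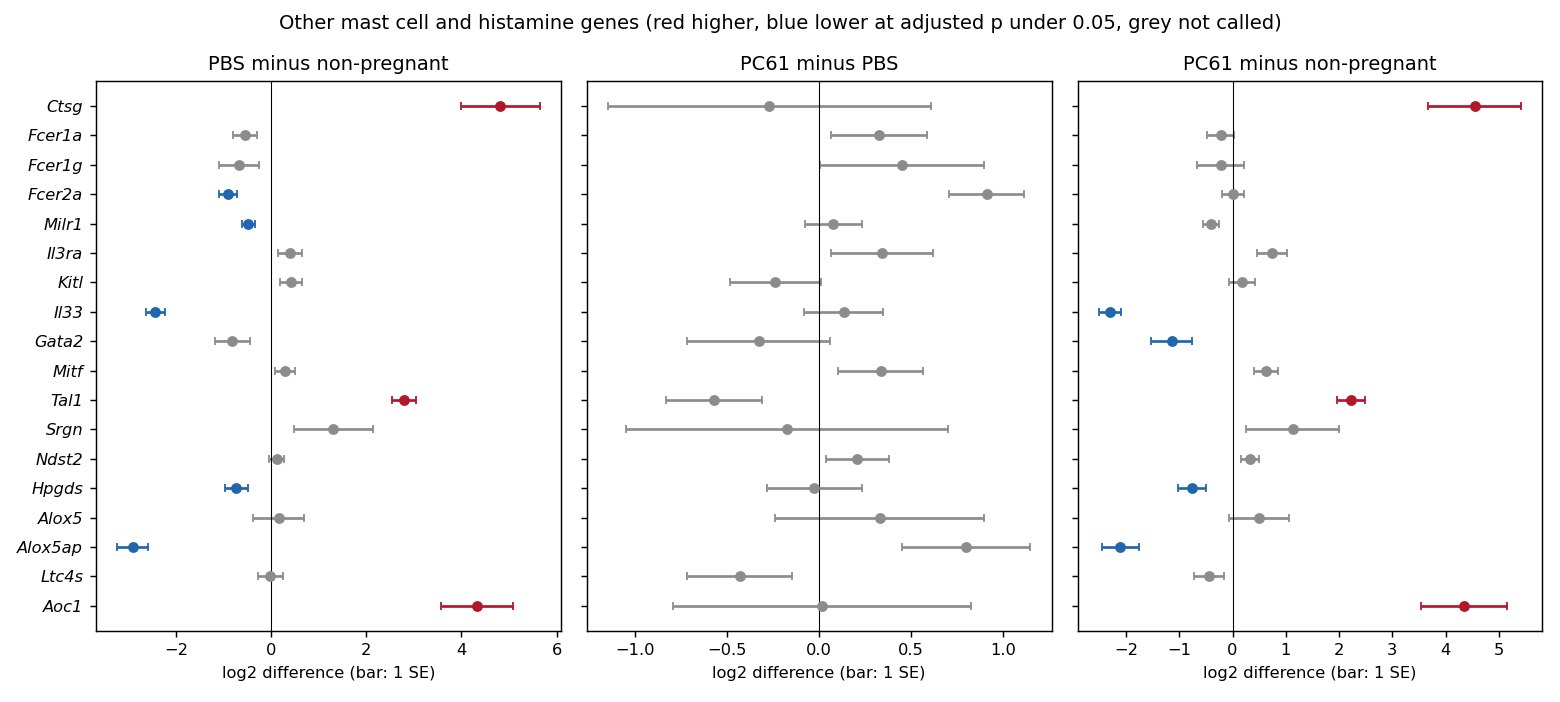
Fitted log2 difference (horizontal axis, its own range in each panel) with 1 SE for the 18 other mast cell and histamine genes in the 3 comparisons. Red and blue points passed at an adjusted p under 0.05: 8 for PBS against non-pregnant, 0 for PC61 against PBS and 7 for PC61 against non-pregnant.

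Between PC61 and PBS arrays limma called 0 of the 18 genes and 0% of all genes tested. At an unadjusted p under 0.05 there were 3 of 18 and 1621 of 10478. The median log2 difference was 0.11 over the 18 and 0.01 over all genes. Fcer2a had the lowest p (0.91, SE 0.20, limma adjusted p = 0.154) and stood above every PBS array on each of the 4 PC61 arrays, at 5.52, 6.39, 5.81 and 5.28. Alox5ap stood at 8.03, 9.07, 9.72 and 7.52, against 7.40 to 8.19 on PBS arrays (0.80, SE 0.35, limma adjusted p = 0.297). PC61 array 4 was the array whose trophoblast genes stood 0.32 above the PBS mean. Without it both genes passed, with 1.07 (limma adjusted p = 0.00268) for Fcer2a and 1.16 (limma adjusted p = 0.0199) for Alox5ap. Over all genes 1529 of 10478 then passed, and of the 18 genes these 2.

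The PC61 arrays were unlike each other in these genes as well. Of the 18 genes, 13 on PC61 array 2 and 14 on array 3 lay above every PBS array, where 32.1% and 31.6% of all genes did. On array 1, 12 of 18 lay below every PBS array, against 23.8% of all genes. On array 4, 4 lay above and 6 below, against 15.5% and 19.4%. Alox5, for example, stood at 4.34, 7.96, 7.80 and 5.66 on PC61 arrays 1 to 4 and at 5.80 to 6.54 on PBS arrays. Srgn stood at 5.69, 11.14, 11.73 and 9.81, against 9.07 to 10.35.

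Hdc and Cpa3 were high on PC61 array 1 while Kit, Srgn, Ctsg, Aoc1 and Gata2 were low there. Relative to the PBS mean, array 1 stood at 1.34 for Hdc and 1.00 for Cpa3 and at -2.18 for Kit. The other Hdc probe rose less there, to 7.95 against a PBS mean of 7.34. The chymase genes did not rise with Cpa3 on array 1: Cma1 was at -0.81 and Mcpt4 at 0.14, both not above background. Smooth muscle genes followed Hdc and Cpa3 on PC61 arrays 1 to 4. Their mean log2 levels relative to the PBS mean were 1.33, 1.85, 1.67 and -0.71. Among non-pregnant arrays they ran opposite to Hdc, low on arrays 2 and 5 and highest on array 3. The oestrogen-responsive epithelial genes were also high on PC61 arrays 2 and 3, at 0.35, 2.49, 2.08 and -0.41 on arrays 1 to 4. That was the side of Hdc here and the opposite side among non-pregnant arrays. Uterine epithelium genes stood at -0.84, -0.30, -0.30 and 0.18. Uterine NK genes followed Kit on array 1 and stood at -4.21, 0.94, 0.79 and 0.34. Macrophage genes stood at -0.26, 0.19, 0.86 and -0.33. The part of these cell types in the PC61 values was not tested.

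**Figure D4:**
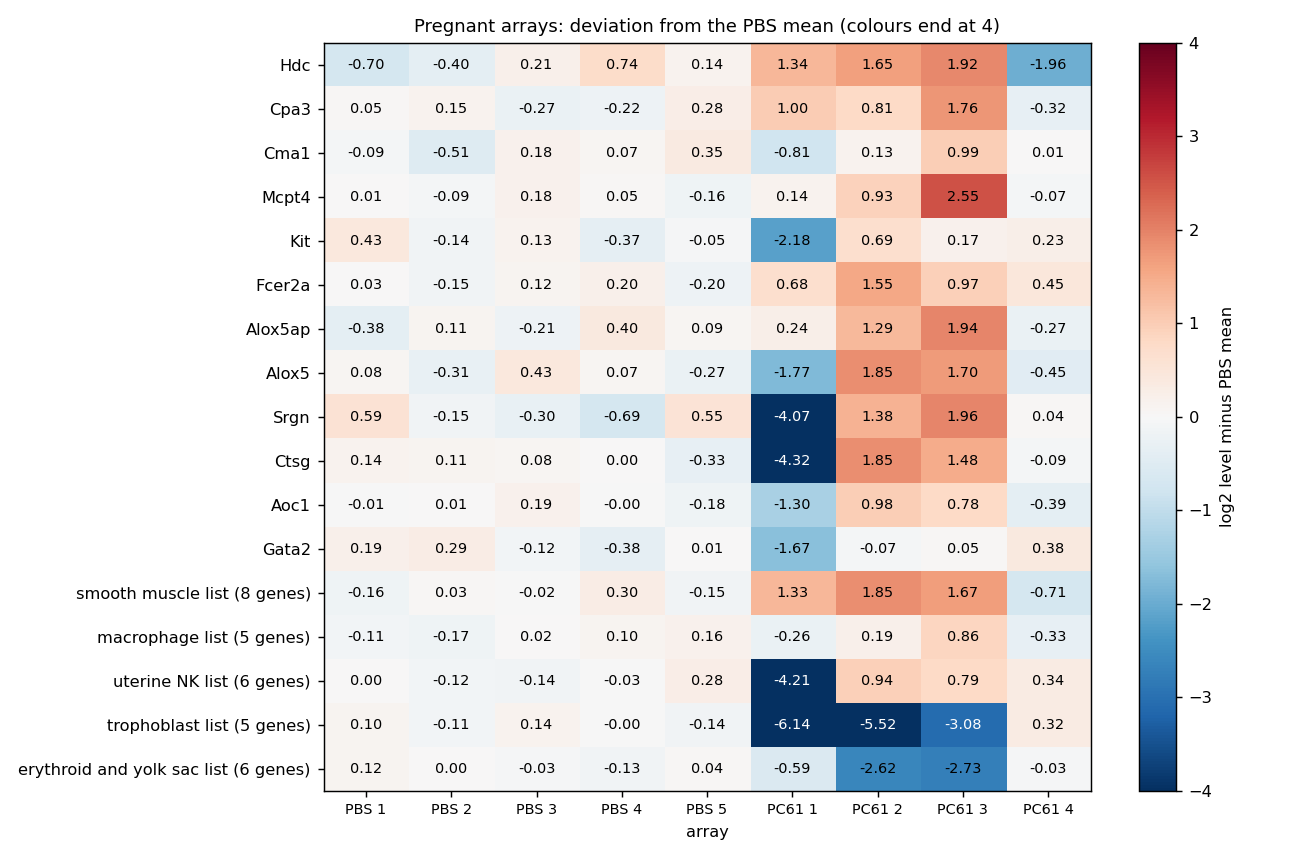
Log2 level minus the mean of the 5 PBS arrays (colour, which saturates at 4, and printed value) for 12 genes and 5 marker lists (rows) on the PBS and PC61 arrays (columns). Hdc is at 1.34, 1.65, 1.92 and -1.96 on PC61 arrays 1 to 4, and the smooth muscle list at 1.33, 1.85, 1.67 and -0.71.

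Between PC61 and non-pregnant arrays limma called 7 of the 18 genes, 3 higher and 4 lower, or 38.9% against 28.3% of all genes (13.7% higher and 14.6% lower). Aoc1, Ctsg and Tal1 rose. Ctsg was at least 13.2-fold higher (limma adjusted p = 0.00147), although PC61 array 1 was not above background. Its measured log2 difference was 4.55, from 3.84 without PC61 array 2 to 5.90 without array 1 and 3.96 without array 3, and 2.73 with no background correction. Tal1 was 2.23 higher on the log2 scale (SE 0.26, limma adjusted p = 2.1e-05), or 1.02 with no background correction. Il33 fell by 2.30 (SE 0.21, limma adjusted p = 1.96e-06), with 5.91, 5.74, 6.51 and 5.16 on PC61 arrays 1 to 4, or by 1.26 with no background correction. Alox5ap fell by 2.11 (SE 0.35, limma adjusted p = 0.000453). Gata2 fell by 1.14 (SE 0.39, limma adjusted p = 0.0389) and Hpgds by 0.76 (SE 0.26, limma adjusted p = 0.0384), both with overlapping groups. Without PC61 array 1, where Gata2 was at 9.80 and Hpgds at 4.64, neither passed, with -0.70 (adjusted p = 0.102) and -0.45 (adjusted p = 0.087). Gata2 also failed without non-pregnant array 1, 2 or 5 or PBS array 3 or 5, at adjusted p-values of 0.0504 to 0.0898, and Hpgds without non-pregnant array 2, 3, 4 or 5 or PC61 array 4, at 0.0515 to 0.0819. Over all alternative settings, leaving out 1 array included, Gata2 kept its call in 15 and lost it in 9. Hpgds kept its call in 11 and lost it in 12. Fcer2a differed by 0.00 (SE 0.20, limma adjusted p = 0.992).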

How the data were processed

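Uterine RNA of 14 samples in 3 labelled groups was measured on Illumina arrays, and samples were grouped by their titles. Per the file headers, the deposited scanner table gives a linear intensity and a detection p-value for each of 45281 probes and each array. The deposited intensities were read as unscaled between arrays, since their medians ran from 93.0 to 139. The authors' processed table holds deposited log2 values of 16948 probes. Each of its columns ranked its probes as the intensities of that array did (rank correlation 1), so its scale was read as log2 with higher meaning brighter, while no source used here gives its normalization, its probe filter, the scanner software or any earlier background step. No 2 arrays held identical values.

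Intensities were corrected and normalized with neqc of limma 3.58.1 under R 4.3.3 (normexp background inferred from the detection p-values, offset 16, quantile normalization, log2). The offset and the background step compress or stretch differences of dim probes. The filter kept 20967 probes, those detected (p under 0.01) in 4 or more arrays. Names came from the platform annotation of the authors' probes, updated through Entrez identifiers (15463 matched, 0 changed): 15469 probes had 1 symbol, 5 had several and 29807 had none here. The probe of highest mean stood for its gene.

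Differences were tested two-sided with lmFit and eBayes, with 1 mean per group over all 14 arrays (11 residual and 3.36 prior degrees of freedom) and Benjamini-Hochberg adjustment. The fit was tested on simulated data. Genes named are the 6 members, each called gene of the 7 lists, 7 genes to be reported whatever their values (Kitl, Fcer1a and 5 not analysed here), up to 3 measured genes of a marker list in list order, and the 5 most correlated with each of Hdc, Cpa3 and Kit, predicted genes skipped. Fcer1g, Il3ra, Srgn, Ndst2, Mitf, Alox5 and Ltc4s were named after their values were seen. The members and all lists were chosen with earlier results of these data known. Alternatives covered the authors' values, background correction, scaling, the detection filter, the probe rule, array weights, eBayes options, the groups fitted, the replicate block and leaving out each array.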

Additional observations from a re-analysis of the deposited data

Results flagged for a closer look

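Hdc on PC61 array 4 stood at 8.39, far from the 11.68 to 12.26 of the other 3 PC61 arrays. On the same array smooth muscle genes were 0.71 below the PBS mean, and trophoblast genes 0.32 above it. Among the non-pregnant arrays, Ctsg on array 1 was at 4.51 against 4.30 to 4.36, all of them not above background. Milr1 on array 4 was at 5.55 against 5.22 to 5.30, and Alox5 on array 2 at 5.42 against 6.00 to 6.22. Each is a sample whose gap to its nearest neighbour takes up most of its group's range. There were 4 such values in 69 combinations of gene and group (5.8%), near the 1 in 20 that chance gives, and the cause of each was not tested.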

How the results depend on the processing

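Counts over the 18 genes varied with the setting. Between PBS and non-pregnant arrays 8 genes were called, 5 with median scaling and no background correction, 3 of the 8 genes left when detection on all 14 arrays was required, 13 with array weights, and 7 to 10 with 1 array left out. Over all genes the count was 4886, 3204 of 7805 genes with detection on all arrays, and 4391 to 5251 with 1 array left out. In the settings other than leaving out 1 array, the count over all genes rose to as many as 6071. Between PC61 and PBS arrays 0 were called, 1 with median scaling (Tal1, lower), 10 with array weights (9 higher, 1 lower), and 0 to 2 with 1 array left out. Over all genes the 0 became 271 with median scaling (0 higher), 4027 with array weights (2105 higher, 1922 lower), and 0 to 1529 with 1 array left out, the highest without PC61 array 4. Between PC61 and non-pregnant arrays 7 were called, 4 of 8 with detection on all arrays, 12 with array weights, and 5 to 9 with 1 array left out. Over all genes 2967 became 1427 with median scaling, 1747 of 7805 with detection on all arrays, and 2454 to 3095 with 1 array left out. In the settings other than leaving out 1 array it rose to as many as 4128. Median scaling moved the median of all genes by 0.13, -0.23 and -0.10 in the 3 comparisons. The SD of Hdc among non-pregnant arrays was 1.52, and 1.28 to 1.74 with 1 array left out. Of the differences of Hdc, Cpa3, Cma1, Mcpt4 and Kit, 3 changed sign: Kit between PC61 and PBS without PC61 array 1 (0.36) and with array weights (0.35), Cma1 in the same comparison without PC61 array 3 (-0.22), without PBS array 2 (-0.05) and with median scaling (-0.01), and Hdc between PC61 and non-pregnant arrays with array weights (0.20). Cma1 and Mcpt4 gave no value with detection on all arrays, as some arrays did not detect them.

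The main fit did not pair arrays by replicate number, and the labels do not say whether those numbers pair them. Deviations of same-numbered arrays correlated at 0.003 to 0.333 between PBS and non-pregnant, -0.175 to 0.086 between PC61 and PBS, and -0.049 to 0.142 between PC61 and non-pregnant arrays. In the first, 4 of 5 PBS arrays correlated best with their own number among the 5 non-pregnant arrays. Against PBS arrays only PC61 array 3 did so, and against non-pregnant arrays PC61 arrays 1 and 3 did. With the replicate block the 3 comparisons called 8, 0 and 5 of the 18 genes and 4764, 0 and 2619 of all genes, and Gata2 and Hpgds between PC61 and non-pregnant arrays no longer passed (adjusted p = 0.0714 and 0.0816). The number of arrays and the dimness of Cma1, Mcpt4, Fcer1a and Milr1 limit the precision of their values.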
